A study of Sus scrofa with 30 samples.

Results

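In neonatal islet cell clusters (NICCs) of the pig, a primary culture of pancreatic islet tissue, 174 of the 25880 genes in the count table had a higher level after maturation in standard medium than before it, a lower level when fetuin-A was present, and a level within 1.5-fold of standard medium in the presence of the TGF-β receptor inhibitor SB431542. Of these 174 genes 151 could be paired with a symbol, and they included the hormone genes GCG and SST, the transcription factors PAX6 and ISL1, the granule genes PCSK2 and SCG2, and 17 genes of the cell cycle. They were selected on the same libraries by mean CPM, the count of a gene per 1000000 counts of its library, so their differences between HSA/d1, HSA/d5, Fet-A/d5 and HSA + SB/d5 are a description and carry no test. The log2 ratio R of 2 group means, with 0.5 CPM added to each, had to be at least 1 for HSA/d5 over HSA/d1 and at most -1 for Fet-A/d5 over HSA/d5, in both cases with all 4 libraries of one group apart from all 4 of the other. HSA + SB/d5 had to lie within a change of 1.5-fold of HSA/d5, Fet-A/d5 had to be less than 2-fold below HSA/d1, and the highest group mean had to reach 1 CPM.

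The clusters whose RNAseq was compared with and without fetuin-A came from animals aged 4 days (n = 2) and 12 days (n = 2), and no label ties a library to an age. Clusters were sampled on day 1 or day 5 of maturation, which were culture days 6 and 10. HSA/d1 and HSA/d5 were kept in medium with human serum albumin (HSA, 0.6 mg/ml), Fet-A/d5 in medium with fetuin-A (0.6 mg/ml) in place of HSA, and HSA + SB/d5 in HSA medium with 10 µmol/l SB431542. HSA + LDN/d5 and HSA + SB + LDN/d5 also received LDN, a name the labels give without a dose or an identity. Each of the 6 groups held 4 libraries, which the study's design text traces to independent islet preparations, although no label ties a library to a preparation. NICCs hold endocrine, ductal, acinar and mesenchymal cells, so a lower level of a transcript in these libraries can mean fewer cells of a type or less RNA per cell, which cannot be told apart.

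As background, endocrine cells of the islet store their hormones in dense-core granules, where prohormone convertases cut the precursors, and release them by calcium-triggered fusion that uses SNARE proteins, synaptotagmins and complexins. Around birth these cells gain ion channels, receptors and exocytotic proteins, while part of them still divides. Fetuin-A is a liver-derived plasma glycoprotein, and SB431542 blocks the type I receptors through which TGF-β and activin activate SMAD2 and SMAD3.

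Total counts ranged from 18883734 to 24346119 per library, and the libraries of a group differed by more than counting noise in all 36 pairs, with a chi-square per degree of freedom of 15.1 to 87.8. Of 13860 genes of at least 1 CPM, 702 (5.06%) met the first criterion and 576 (4.16%) the second. Both were met by 261 genes, of which 66 fell outside the window for SB431542 and 21 of the rest lay 2-fold or more below HSA/d1 with fetuin-A. That window does not mean that SB431542 left the genes as they were. In HSA + SB/d5 131 of the 174 genes had a mean below that of HSA/d5, with a median R of -0.22, beside 0.00 over all genes of at least 1 CPM. The defining islet genes were present: GCG had the highest CPM of the 174, a scale that does not correct for gene length, and made up 64.0% of their summed CPM in HSA/d5.

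Among the hormones, GCG, which encodes glucagon and the other proglucagon peptides, had 3109.9, 2825, 3747 and 4573 CPM in the 4 libraries of HSA/d1. In HSA/d5 the values were 24529.7, 14909, 15985 and 23557 CPM, and in Fet-A/d5 1334, 932, 8259 and 3895 CPM. All HSA/d5 libraries lay far above HSA/d1, whereas library 3 of Fet-A/d5 was above and libraries 1 and 2 were below every HSA/d1 library. The group means were 3564 ± 775, 19745 ± 4998 and 3605 ± 3369 CPM (SD, n = 4), which gave R = 2.47 for maturation and R = -2.45 for fetuin-A. SST, the gene of somatostatin, read 488, 533, 719 and 622 CPM in HSA/d1, 2855, 2946, 2592 and 2220.2 CPM in HSA/d5 and 781, 515, 1417 and 628 CPM in Fet-A/d5. For SST too library 3 was the highest of Fet-A/d5 and libraries 2 and 4 lay within the range of HSA/d1. TTR, a thyroid hormone carrier made by alpha cells, had means of 62.1 ± 11.7, 234 ± 75.2 and 64.4 ± 30.7 CPM in HSA/d1, HSA/d5 and Fet-A/d5 (SD, n = 4). INS, the gene of insulin, was not selected because its libraries overlapped: its means were 747 ± 504 CPM in HSA/d1, 2596 ± 2321 CPM in HSA/d5 and 748 ± 736 CPM in Fet-A/d5 (SD, n = 4). The spread of INS in HSA/d5 was thus nearly as large as its mean, unlike that of GCG.

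Among the 174 genes were 3 transcription factors of endocrine cells. PAX6, which endocrine cells need to make hormones, had 46.8, 44.1, 74.5 and 90.6 CPM in HSA/d1, 184, 136, 169.8 and 259 CPM in HSA/d5 and 48.1, 25.1, 127 and 72.1 CPM in Fet-A/d5. ISL1, a LIM homeobox factor of all endocrine lineages, read 11.1, 9.23, 19.3 and 15.5, then 56.4, 34.8, 47.5 and 50.95 and with fetuin-A 12.1, 5.98, 32.04 and 12.96 CPM. IRX2, a factor typical of alpha cells, had means of 10.6 ± 3.45, 33.7 ± 6.56 and 12.7 ± 8.27 CPM in the same groups (SD, n = 4). In each of the 3 genes the Fet-A/d5 mean was close to that of HSA/d1, and library 3 was the only one of Fet-A/d5 above every library of HSA/d1. NEUROD1, another endocrine factor, met both main criteria but was outside the window for SB431542 (R = -0.65), with 112 CPM in HSA/d5 and 70.8 CPM in HSA + SB/d5.

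The genes were grouped by textbook function after they had been selected, and 15 belonged to the secretory granule and exocytosis. Of these, PCSK2, the convertase that cuts proglucagon and finishes proinsulin processing, read 90.5, 78.9, 171 and 218 CPM in HSA/d1, 769, 536, 590.1 and 1097 CPM in HSA/d5 and 102, 52.4, 378 and 190.2 CPM in Fet-A/d5. SCG2, a granin of the granule core, had 79.9, 77.5, 171 and 237, then 505, 439, 605 and 1158 and with fetuin-A 89.5, 51.2, 323 and 194 CPM. In both genes library 3 of Fet-A/d5 exceeded every library of HSA/d1, and libraries 1, 2 and 4 lay within or below the range of HSA/d1. SLC30A8, the zinc transporter of insulin granules, had 6.56, 4.66, 16.05 and 21.2 CPM in HSA/d1, 42.3, 22.2, 38.4 and 78.4 CPM in HSA/d5 and 3.29, 1.53, 15.7 and 10.3 CPM in Fet-A/d5. Its HSA/d1 and HSA/d5 libraries came close to each other, with 4.66 to 21.2 against 22.2 to 78.4 CPM. The precursor VGF had means of 118 ± 51.9, 365 ± 134 and 93.1 ± 45.98 CPM, and the granule membrane proteins PTPRN and PTPRN2 had 57.9, 258 and 72.98 and 42.7, 204 and 67.5 CPM. Among the proteins of membrane fusion, SNAP25, a SNARE of the plasma membrane, had 8.26, 9.80, 18.8 and 24.9 CPM in HSA/d1, 40.1, 37.2, 45.4 and 80.3 CPM in HSA/d5 and 17.00, 13.5, 25.9 and 24.7 CPM in Fet-A/d5. The complexin CPLX2 and the synaptotagmin SYT5 had R of -1.33 and -2.09 with fetuin-A, from 264 ± 57.3 and 61.5 ± 17.9 CPM in HSA/d5 (SD, n = 4). SCGN, a calcium-binding protein of endocrine cells, was lower at 159 ± 139.9 CPM in Fet-A/d5 than at 531 ± 118 CPM in HSA/d5. The other members of this group were the vesicle proteins SYP, SV2B and AMPH and the small GTPases RAB3B and RAB26. Over the 15 genes the median R was 1.69 for maturation and -1.59 for fetuin-A, and 11 of the 15 had a Fet-A/d5 mean above that of HSA/d1, or 7 of the 15 without library 3 of Fet-A/d5.

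**Figure D1:**
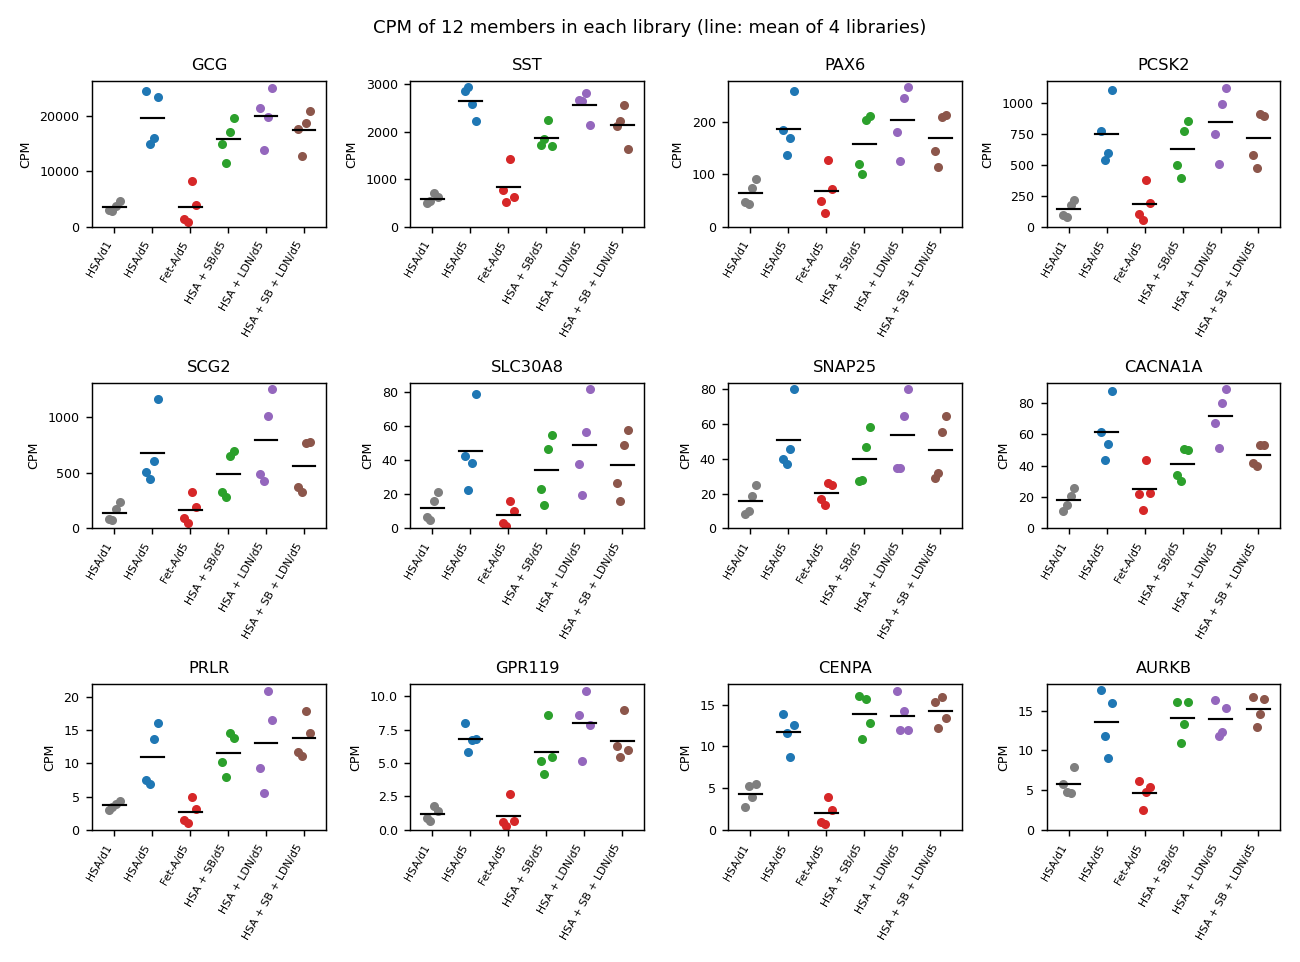
CPM of 12 of the 174 genes on linear axes from 0, with 1 point per library, 4 libraries in each of the 6 groups and a line at the group mean. The Fet-A/d5 points of GCG, PAX6, PCSK2 and CENPA overlap with those of HSA/d1, with library 3 the highest of Fet-A/d5, and the points of the groups with SB431542 or LDN sit near those of HSA/d5.

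The 174 genes held 12 ion channels or transmitter receptors, proteins that set the membrane potential and the calcium entry that precede secretion. CACNA1A, the pore of the P/Q-type calcium channel, had 11.1, 15.2, 20.5 and 25.9 CPM in HSA/d1, 61.4, 43.8, 53.6 and 87.4 CPM in HSA/d5 and 22.04, 11.9, 43.4 and 22.2 CPM in Fet-A/d5. GRIA3, an AMPA-type glutamate receptor subunit, read 49.9, 49.3, 74.8 and 89.3, then 325, 238, 254 and 363 and with fetuin-A 87.3, 48.9, 221 and 99.1 CPM. The highest Fet-A/d5 library of each of these genes came within reach of the lowest HSA/d5 library. KCNA4, a voltage-gated potassium channel, was among the genes with the lowest R for fetuin-A (-2.53), with means of 2.70 ± 2.02, 13.5 ± 8.66 and 1.93 ± 1.49 CPM (SD, n = 4). The others included the kainate receptor GRIK1, the metabotropic receptors GRM4 and GABBR2, the sodium channel SCN3A, the potassium channel KCND2, the cation channel TRPC5, and NALCN with its partner UNC80. Over the 12 the median R was 1.67 for maturation and -1.40 for fetuin-A.

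Of 5 hormone and other receptors, GPR119, a fatty-acid amide receptor of islet cells that raises cyclic AMP, had 0.871, 0.697, 1.76 and 1.44 CPM in HSA/d1, 7.97, 5.79, 6.69 and 6.76 CPM in HSA/d5 and 0.57, 0.27, 2.70 and 0.658 CPM in Fet-A/d5. Library 3 of Fet-A/d5 exceeded every HSA/d1 library, and the other 3 lay below all of them. PRLR, the prolactin receptor, through which beta cells are driven to divide in rodent pregnancy, read 3.03, 3.48, 3.94 and 4.28 CPM, then 7.47, 6.94, 13.6 and 15.97 and with fetuin-A 1.53, 1.03, 4.91 and 3.19 CPM. Libraries 1 and 2 of Fet-A/d5 were below every HSA/d1 library of PRLR. ACVR1C, which encodes the activin type I receptor ALK7 and thus one of the kinases that SB431542 inhibits, had 2.98, 2.39, 3.02 and 3.56 CPM in HSA/d1, 17.02, 10.3, 6.29 and 10.6 CPM in HSA/d5 and 1.40, 0.63, 2.30 and 1.21 CPM in Fet-A/d5. Its R for fetuin-A, -2.62, was the lowest of the 174, and all 4 of its Fet-A/d5 libraries lay below all 4 of HSA/d1. Its mean in HSA + SB/d5 was 9.14 ± 1.21 CPM against 11.1 ± 4.44 CPM in HSA/d5 (SD, n = 4). LEPR, the leptin receptor, and P2RY14, a receptor of UDP-sugars, completed this group.

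A further 10 genes are best known from neurons, as adhesion molecules or parts of the cytoskeleton, among them CNTN1, ROBO2, NEGR1, CLSTN3, DCX and STMN3. TNR, an extracellular matrix glycoprotein of the nervous system, kept more of its difference than any other of the 174: HSA/d1 had 2.80, 2.35, 4.41 and 3.996 CPM, HSA/d5 23.9, 17.4, 18.9 and 30.1 CPM and Fet-A/d5 9.77, 4.72, 15.5 and 11.1 CPM. All Fet-A/d5 libraries of TNR lay above all of HSA/d1 and below all of HSA/d5, and the Fet-A/d5 mean stood at 35.9% of the way from the HSA/d1 mean to that of HSA/d5. MAPT, the microtubule protein tau, had 52.5 ± 13.3, 128 ± 8.35 and 62.04 ± 16.7 CPM in the 3 groups (SD, n = 4).

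The 17 genes of the cell cycle had lower means with fetuin-A than at the start of maturation. In each of the 17 the libraries of Fet-A/d5 and HSA/d1 overlapped. CENPA, the histone variant of centromeres, had 2.71, 5.22, 3.90 and 5.54 CPM in HSA/d1, 13.9, 11.6, 8.71 and 12.5 CPM in HSA/d5 and 0.964, 0.675, 3.90 and 2.33 CPM in Fet-A/d5. CCNB2, a cyclin of mitosis, read 4.59, 6.66, 5.94 and 7.94 CPM, then 15.98, 13.2, 12.2 and 13.98 and with fetuin-A 1.58, 0.9, 5.91 and 3.39 CPM. In both genes libraries 1, 2 and 4 of Fet-A/d5 lay below every library of HSA/d1, and library 3 was within the HSA/d1 range. AURKB, the kinase of the chromosomal passenger complex, had 5.73, 4.79, 4.68 and 7.89 CPM in HSA/d1, 17.6, 11.8, 9.07 and 15.9 CPM in HSA/d5 and 6.18, 2.47, 4.71 and 5.36 CPM in Fet-A/d5, with the Fet-A/d5 and HSA/d1 libraries interleaved. The others were the E2F factors E2F2, E2F7 and E2F8, the kinesins KIF14, KIF18A and KIF18B, the spindle and cytokinesis genes CKAP2, CKAP2L, TROAP, CIT and SHCBP1, the mitotic kinase MASTL, the centromere gene CENPT and the DNA polymerase POLE. Their median R was 1.17 for maturation and -1.96 for fetuin-A, and the Fet-A/d5 mean was below the HSA/d1 mean in all 17 (median R -0.87), also with each Fet-A/d5 library omitted in turn.

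The floor of the selection shaped this group. Of 35 cell cycle and proliferation genes listed for this work 27 reached 1 CPM. Of these 27, 25 were lower with fetuin-A by the second criterion, beside 4.16% of all genes of at least 1 CPM. Only 7 were higher in HSA/d5 than in HSA/d1 by the first, beside 5.06%. Of these 7, CENPA, CCNB2 and AURKB were kept, and 4 were left out because their Fet-A/d5 mean was 2-fold or more below that of HSA/d1. They included CDK1, the kinase of mitotic entry, with 11.9, 29.1 and 4.49 CPM in HSA/d1, HSA/d5 and Fet-A/d5, and TOP2A, the topoisomerase of dividing cells, with 47.4, 104 and 19.002 CPM. The members just above the floor were SHCBP1, CCNB2 and KIF14 (R from -0.99 to -0.98), and the genes just below it were ASPM, E2F1 and HJURP (R from -1.03 to -1.06).

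**Figure D2:**
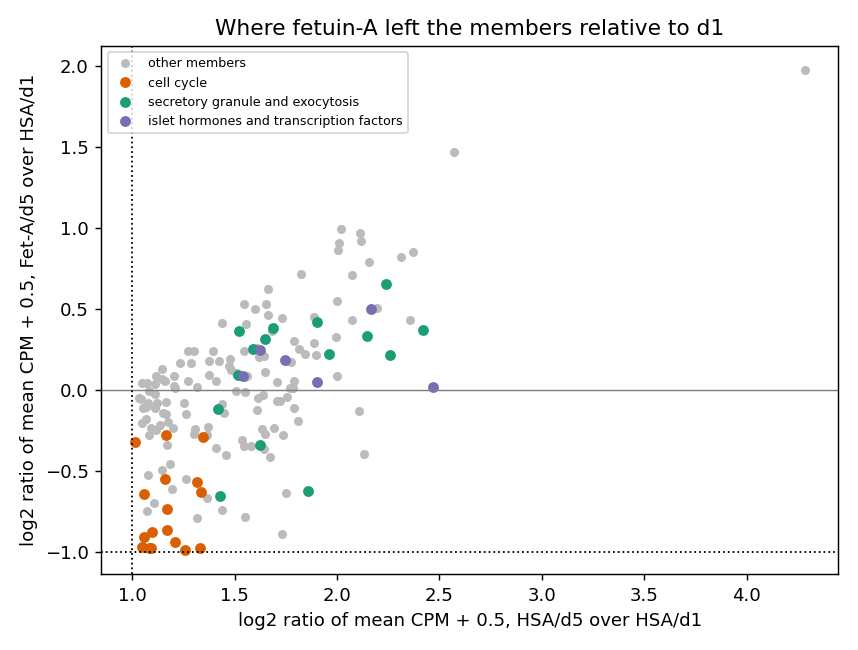
Log2 ratio of the Fet-A/d5 mean to the HSA/d1 mean against that of the HSA/d5 mean to the HSA/d1 mean, 0.5 CPM added to each mean, for the 174 genes, 1 point per gene, with dotted lines at the limits of the selection. The 17 cell cycle genes lie below 0 on the vertical axis, between -0.99 and -0.28, whereas 11 of 15 granule and exocytosis genes and all 6 hormone and transcription factor genes lie above 0, counts that drop to 7 and 1 without library 3 of Fet-A/d5.

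Across all 174 genes the Fet-A/d5 mean was above that of HSA/d1 in 88 and below it in 86, with a median R of 0.01, beside 0.02 over all genes of at least 1 CPM. Library 3 of Fet-A/d5 decided this balance: without it 44 of the 174 means were above that of HSA/d1, the median R was -0.26, and the Fet-A/d5 mean of GCG was 2054 CPM in place of 3605 CPM. With library 1, 2 or 4 of Fet-A/d5 omitted instead, 82 to 107 means were above. All Fet-A/d5 libraries exceeded all HSA/d1 libraries in 4 genes (PRODH2, APLP1, TNR and ENSSSCG00000014037), beside 18.6% of all genes of at least 1 CPM, and all lay below in 4 (TMIE, FXYD3, DNAJC12 and ACVR1C), beside 17.7%. The limits set on R made both counts small, and nothing is read from them. TF, which encodes the iron carrier transferrin, was the gene with the largest maturation difference (R = 4.29): it had 4.95, 6.05, 20.8 and 20.2 CPM in HSA/d1, 277, 296, 146 and 331 CPM in HSA/d5 and 50.3, 16.6, 62.7 and 80.6 CPM in Fet-A/d5. Libraries 1 and 2 of HSA/d1 were low for TF and libraries 3 and 4 higher, and library 2 of Fet-A/d5, the lowest of its group, lay between these pairs. Expressed per gene on the CPM scale, the Fet-A/d5 mean stood at a median of 0.297% of the way from the HSA/d1 mean to the HSA/d5 mean, from -45.9% in MASTL to 35.9% in TNR.

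Other members of high CPM were HEPACAM2, an adhesion protein, with 314 ± 118 CPM in HSA/d5 and 90.4 ± 76.7 CPM in Fet-A/d5, and SLC7A2, a cationic amino acid transporter, with 306 ± 93.1 and 107 ± 72.5 CPM (SD, n = 4). DPP4, the peptidase that inactivates incretins, read 10.3 ± 1.32, 31.2 ± 3.69 and 10.97 ± 3.53 CPM in HSA/d1, HSA/d5 and Fet-A/d5. CAMK2B, a calcium- and calmodulin-dependent kinase, read 8.47 ± 2.09, 21.8 ± 4.96 and 8.58 ± 1.78 CPM. FXYD3, a regulator of the sodium pump, and SLC25A53, a mitochondrial carrier, were among the lowest with fetuin-A (R = -2.38 and R = -2.34). In HSA/d5 the 174 genes had a median mean of 13.4 CPM and a lowest of 1.55 CPM; 104 reached 10 CPM and 20 stayed under 3 CPM. In the RefSeq gene order of the pig assembly Sscrofa11.1, in which 144 of the genes were found, 2 pairs were direct neighbours, DPP4 with GCG and MTMR7 with SLC7A2. How many such pairs 144 genes taken at random would give was not computed, so nothing is read from them.

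The genes varied together from library to library. Taken as the median over the 174 genes of the log2 level against the HSA/d5 mean, the 4 HSA/d5 libraries stood at 0.02, -0.27, -0.20 and 0.33. The HSA/d1 libraries stood at -1.78, -1.79, -1.43 and -1.13, and the Fet-A/d5 libraries at -1.81, -2.17, -0.98 and -1.50. Library 3 of Fet-A/d5 was thus the highest of its group and library 2 the lowest, and the library medians of HSA/d1 and Fet-A/d5 overlapped. The summed CPM of the 174 genes made up 0.517% to 0.845% of the counts in HSA/d1, 2.44% to 3.74% in HSA/d5 and 0.276% to 1.42% in Fet-A/d5. After the group mean was subtracted from each library, the median Pearson's r between pairs of the 174 genes over the 24 libraries was 0.64, beside 0.04 between all genes of at least 1 CPM. The median r was 0.89 within the granule and exocytosis group, 0.83 within the cell cycle group and 0.74 between the 2 groups. These r describe genes that share libraries and were chosen on them, and carry no test.

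**Figure D3:**
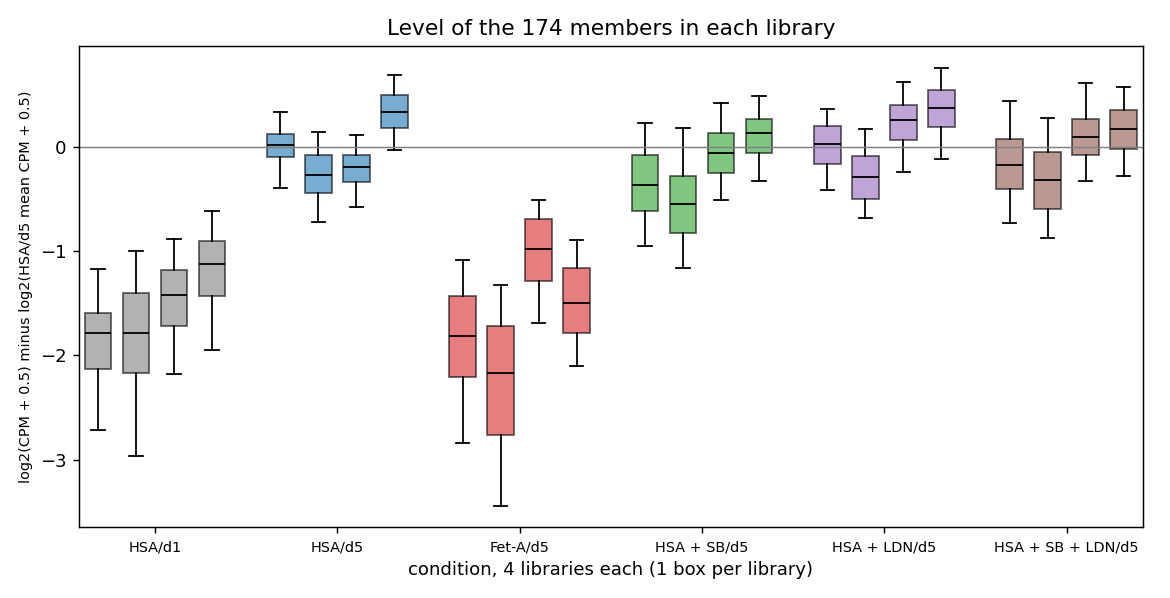
Level of the 174 genes in each of the 24 libraries, as log2(CPM + 0.5) minus log2 of the HSA/d5 mean + 0.5; each box is 1 library, with the median, the quartiles and whiskers to percentiles 5 and 95 over genes. HSA/d1 and Fet-A/d5 share one range, with library medians from -2.17 to -0.98, and the other 4 groups another, from -0.55 to 0.37.

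LDN was not part of the selection, apart from the minimum of 1 CPM. Each gene's R for HSA + LDN/d5 over HSA/d5 lay within 1.5-fold in 173 of the 174 genes, with a median of 0.12 beside 0.01 over all genes of at least 1 CPM, and 154 had a mean above that of HSA/d5. As log2 against the HSA/d5 mean, the medians of libraries 1 to 4 were 0.02, -0.27, -0.20 and 0.33 in HSA/d5. In HSA + LDN/d5 they were 0.03, -0.29, 0.25 and 0.37. By number the 2 groups thus differed mainly in library 3, and nothing is read from the 154. The libraries of the 2 groups overlapped in 173 genes, where 0.592% of all genes of at least 1 CPM had no overlap and were higher with LDN and 0.411% were lower. In MAPT alone all HSA + LDN/d5 libraries (138, 140.5, 162 and 138 CPM) were above all of HSA/d5 (122, 133, 119 and 136 CPM). All HSA + LDN/d5 libraries exceeded all HSA/d1 libraries in 168 of the 174 genes, beside 22.8% of all genes of at least 1 CPM, and all Fet-A/d5 libraries in 166, beside 20.7%. All HSA + SB + LDN/d5 libraries exceeded all HSA/d1 libraries in 164, beside 18.4%, and all Fet-A/d5 libraries in 148, beside 20.1%. In 143 genes all 4 separations were found, beside 5.16% of all genes of at least 1 CPM. HSA/d1 and Fet-A/d5 were used in the selection and were low by it, so these counts describe the LDN groups only. PCSK2 had 748, 508, 988 and 1120.2 CPM in HSA + LDN/d5 and 581, 469, 904 and 889 CPM in HSA + SB + LDN/d5, and GCG had 21461, 13911, 19949.9 and 25179 CPM and 17619, 12737, 18709 and 20917 CPM.

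SB431542 was also tested in libraries that the selection had not used, apart from the minimum of 1 CPM. HSA + SB + LDN/d5 was compared with HSA + LDN/d5 by edgeR's quasi-likelihood test over all genes. The 174 genes had been chosen for a change of less than 1.5-fold with SB431542 in the absence of LDN. That choice by itself favours few calls here, so nothing is read from the counts beside the shares of all genes. All 174 genes passed the filter on low counts. One was called higher at an adjusted p below 0.05, beside 0.532% of the 14842 genes tested, and none lower, beside 1.21%. At an unadjusted p below 0.05, 4 were higher, beside 7.03% of the genes tested, and 1 was lower, beside 6.65%. DESeq2's Wald test called 2 higher and 0 lower at an adjusted p below 0.05, beside 1.17% and 1.94%. With 3 surrogate variables in the fit 3 were called higher and 7 lower, beside 6.76% and 6.72%, so the number of calls rested on how the spread between libraries was modelled. The fit had no term for the islet preparation, which no label gives. The gene called was ENPEP, which encodes aminopeptidase A, with 1.93, 1.91, 2.45 and 2.44 CPM in HSA + LDN/d5 and 3.95, 3.71, 5.30 and 4.002 CPM in HSA + SB + LDN/d5. Its libraries did not overlap, and its log2 fold change was 0.97 (SE 0.25, edgeR adjusted p = 0.0493), which was no longer below 0.05 after omission of any single one of the 8 libraries (adjusted p 0.0714 to 0.168). The intervals of single genes were wide, with a median SE of 0.28 on the log2 scale, so a p above the threshold does not show that SB431542 left a gene as it was.

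Apart from ENPEP no single gene passed edgeR's test without surrogate variables, but the signs were unequal. The median log2 fold change was -0.19 over the 174 genes, beside 0.00 over all genes tested, and 127 lay below 0 and 47 above. None of the 15 granule and exocytosis genes lay above 0 with all libraries (median -0.26), for example SCG2 at -0.49 (SE 0.51) and SYT5 at -0.40 (SE 0.28). The 12 channels and transmitter receptors had a median of -0.29 and the 6 hormone and transcription factor genes of -0.25. Without library 4 of HSA + LDN/d5 4 of the 15 lay above 0 and their median was -0.06, without library 2 of HSA + SB + LDN/d5 2 did (median -0.13), and without library 3 of HSA + LDN/d5 1 did (median -0.18). All 17 cell cycle genes lay above 0 with all libraries (median 0.14) and 15 without library 2 of HSA + LDN/d5 (median 0.07), for example SHCBP1 at 0.30 (SE 0.28) and CENPA at 0.07 (SE 0.31). None of these named genes passed edgeR's test without surrogate variables. The median over the 174 genes was -0.06 without library 4 of HSA + LDN/d5 and -0.09 without library 2 of HSA + SB + LDN/d5. In HSA + SB/d5 over HSA/d5, which share no library with the LDN groups but were used in the selection, 14 of the 15 granule genes had a mean below HSA/d5 (median R -0.26) and 14 of the 17 cell cycle genes one above it (median R 0.06). The sign was the same in both comparisons in 152 of the 174 genes, below 0 in both in 118 and above 0 in both in 34. Since genes vary together from library to library, as given above, such counts over genes are not counts of independent observations, and no test was made of them.

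**Figure D4:**
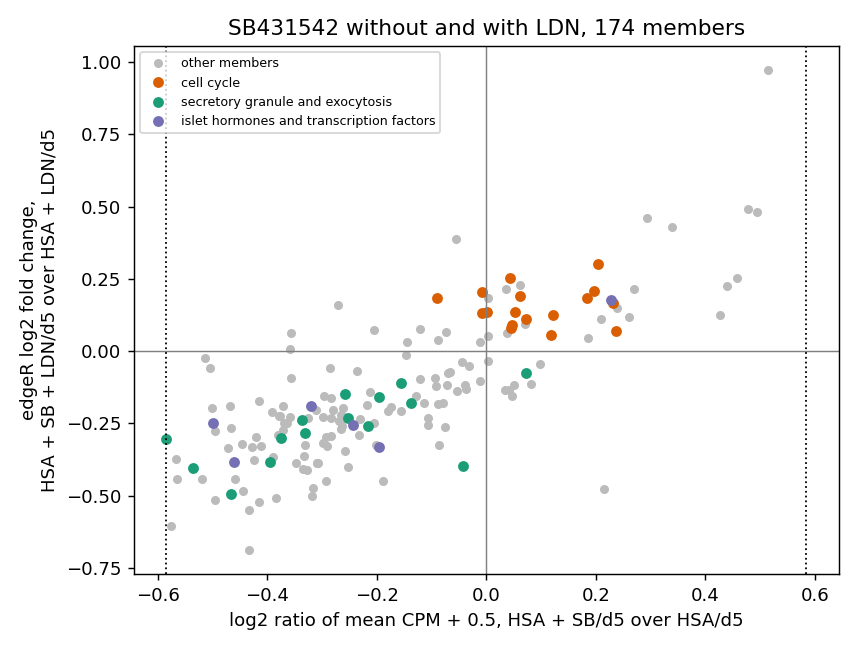
Log2 fold change of HSA + SB + LDN/d5 over HSA + LDN/d5 by edgeR against the log2 ratio of the HSA + SB/d5 mean to the HSA/d5 mean, 0.5 CPM added to each mean, for the 174 genes, 1 point per gene, with dotted lines at the 1.5-fold limits of the selection. The 17 cell cycle genes lie above 0 on the vertical axis, the 15 granule and exocytosis genes lie below 0 with all libraries in the fit, and ENPEP is the highest point at 0.97.

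The wider gene lists show what the selection took from each function. Over all 13860 genes of at least 1 CPM, 702 (5.06%) were higher with maturation, 576 (4.16%) were lower with fetuin-A and 261 met both criteria. The lists were chosen with earlier results of these data known, so no enrichment is read from their counts. Of 28 secretory granule and exocytosis genes measured, all at 1 CPM or more, 20 were higher in HSA/d5 than in HSA/d1 and 13 of these were lower with fetuin-A; 9 were kept and 4 lay outside the window for SB431542. CHGB, a granin, was one of the 4, at 1639.9 CPM in HSA/d5, 336 CPM in Fet-A/d5 and 838 CPM in HSA + SB/d5, and PCSK1, the other convertase, was another, at 983, 100.2 and 633 CPM. CHGA and CPE, a further granin and the carboxypeptidase of the granule, were lower in the mean with fetuin-A (R = -1.40 and R = -1.60), but their libraries overlapped with those of HSA/d5. Of 16 genes of glucose sensing and coupling 10 were higher with maturation and 7 lower with fetuin-A, 4 met both and 2 were kept, CACNA1A and CAMK2B. ABCC8, a subunit of the ATP-sensitive potassium channel, was left out with R = -0.75 for SB431542. Of 15 receptors of islet cells 6 met both criteria and 4 were kept (GPR119, PRLR, DPP4 and ACVR1C), while CASR, the calcium-sensing receptor, stood just outside the window at R = -0.61. Of 14 genes of beta cell identity 3 met both and PAX6 and ISL1 were kept, and of 8 other hormone and endocrine genes 4 met both and all 4 were kept.

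None of the 22 genes on the list of TGF-β ligands, receptors, SMADs and targets, of 19 extracellular matrix genes or of 6 disallowed and immature beta cell genes of at least 1 CPM met both main criteria. Both were met by 261 of all 13860 genes of at least 1 CPM. At that share lists this short can hold none, so nothing is read from these counts. ACVR1C, also a receptor of the TGF-β family, was on the list of receptors of islet cells and was not counted among the 22. In the comparison of SB431542 in the presence of LDN, edgeR called 1 of the TGF-β genes higher and 6 lower, and 3 of the extracellular matrix genes lower. Over all genes tested 0.532% were called higher and 1.21% lower. No gene of the granule, hormone, receptor or cell cycle lists was called in that comparison, as lists of this size can show at those shares. At an unadjusted edgeR p below 0.05, 7.03% of all genes tested were higher and 6.65% lower. At that threshold the granule list had 1 higher and 2 lower, the hormone list 0 and 1, the receptor list 1 and 1, and the cell cycle list 1 and 0. Nothing is read from these counts. From the lists of beta cell identity and of glucose sensing, 1 gene each was called lower, neither among the 174. Of the lists of other cells and states, 1 endothelial gene was called higher. At an unadjusted p below 0.05 the endothelial list had 4 higher and 1 lower, the mesenchymal list 0 and 1 and the inflammatory list 1 and 0, and the acinar, ductal, immune, Schwann and disallowed lists had 0 in both directions.

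Markers of the other cells in these clusters varied between groups and libraries as well, and their part in the results was not tested. The libraries of each group were numbered in the order of the labels, and in all 6 groups the library numbered 1 had the highest sum of acinar markers, and the library numbered 4 the lowest of acinar and the highest of endothelial and of Schwann and glial markers. None of the acinar, ductal, mesenchymal, endothelial, immune, or inflammatory and stress genes on the lists met both criteria. Since only 261 of all 13860 genes of at least 1 CPM did, nothing is read from this absence on short lists. The summed CPM of 10 acinar markers ran from 7034 to 26008 in HSA/d1, from 961 to 12004 in HSA/d5 and from 118 to 1991 in Fet-A/d5. That of 12 mesenchymal and stellate markers ran from 1868 to 7700 in HSA/d5 and from 1175 to 2901 in Fet-A/d5, and that of 9 ductal markers from 7026 to 10934 and from 9921 to 11601. Endothelial markers (8 genes) lay between 382 and 619 in HSA/d5 and between 188 and 483 in Fet-A/d5, and immune markers (10 genes) between 24.9 and 53.8 and between 25.8 and 46.6. The 9 inflammatory and stress genes lay between 1264 and 2080 in HSA/d5 and between 2136 and 3049 in Fet-A/d5. HSPA5 had the highest mean CPM of the 9 over the groups and CXCL8 the next, so this sum is weighted to them. Of these sums, that of the inflammatory and stress genes alone did not overlap between HSA/d5 and Fet-A/d5. The mesenchymal overlap came from library 3 of HSA/d5 at 1868 CPM, and its libraries 1, 2 and 4 had 6268, 6763 and 7700 CPM. The acinar overlap came from library 4 of HSA/d5 at 961 CPM, with the rest of HSA/d5 above every Fet-A/d5 library. The ductal overlap came from library 3 of HSA/d5 at 10934 CPM, with the rest of HSA/d5 below every Fet-A/d5 library. Among defining markers, EGFL7 of endothelial cells and CD3D of T cells were at 0 in every group, while PECAM1 of endothelial cells had means of 178 CPM in HSA/d5 and 140.3 CPM in Fet-A/d5.

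The 5 Schwann and glial markers measured summed to between 421 and 1905 CPM in HSA/d5 and between 519 and 2173 CPM in Fet-A/d5, so that the groups overlapped. C1QB, a complement gene of macrophages, is among the 174 genes. It had 2.43, 2.09, 2.13 and 1.59 CPM in HSA/d1, 14.8, 9.14, 5.21 and 4.87 CPM in HSA/d5 and 3.94, 2.97, 2.45 and 0.86 CPM in Fet-A/d5.

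**Figure D5:**
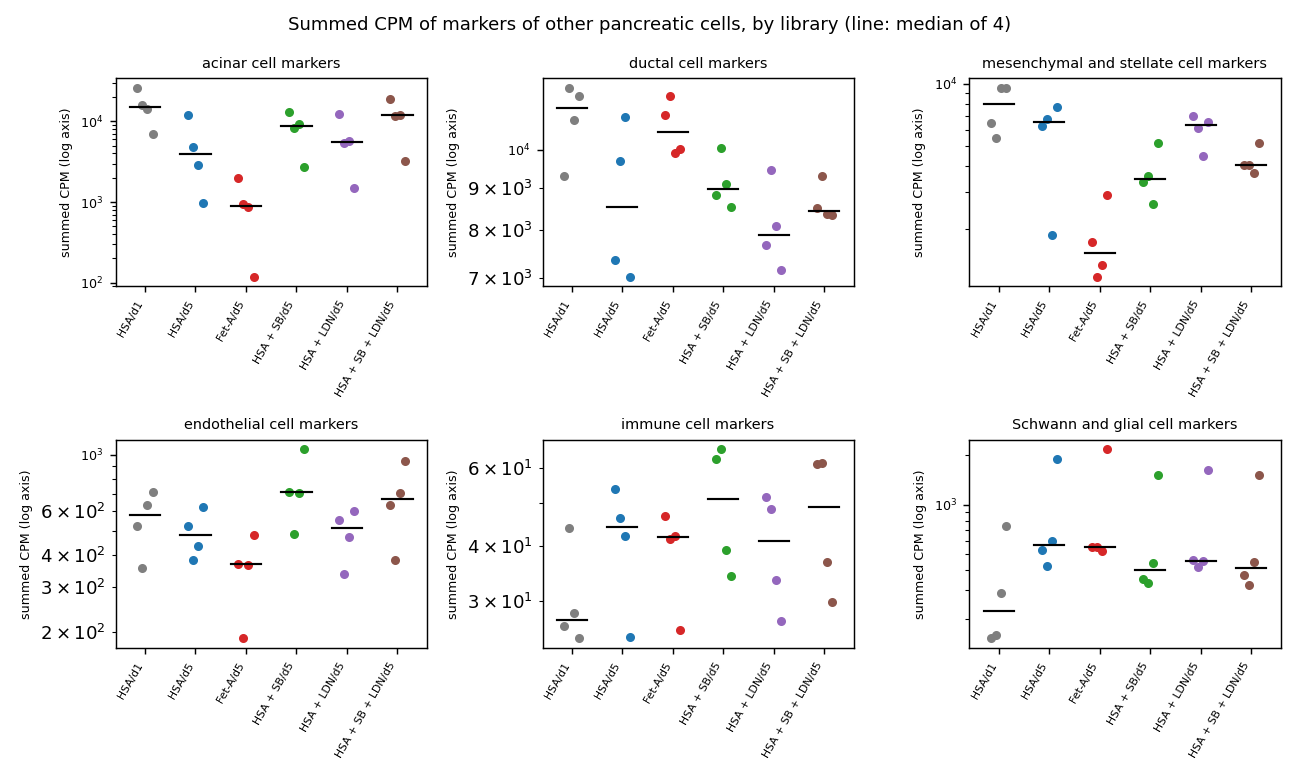
Summed CPM, on log axes, of the markers of 6 other kinds of cell in each library, with 4 points per group and a line at the median. Acinar markers reach 26008 CPM in HSA/d1 and 118 CPM in Fet-A/d5, and 1 library of each group stands above the others for Schwann and glial markers.

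The members nearest the other limits were KIF18A, DYNC1I1 and KLHL32 for maturation (R from 1.01 to 1.04), with POLE2, FANCA and ENSSSCG00000039370 just outside (0.9995 to 0.981). For fetuin-A they included DOCK8 and SCN3A (R of -1.005 and -1.0155), with INA, CBX6 and CPNE4 outside (-0.996 to -0.986). For SB431542 they were SV2B, CACNA1A and SLC25A53 (R from -0.58 to -0.57), with SYT10, NFASC and CASR outside (-0.59 to -0.61).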

How the data were processed

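Strand-specific, poly-A-selected RNAseq was performed on 24 libraries of NICCs, 4 in each of 6 groups taken from the sample labels. The authors deposited raw counts, as whole numbers per Ensembl gene, for 25880 genes. The submitters' processing notes name Trim Galore 0.5, STAR 2.6.1 and featureCounts 1.6.2, and the genome build and the counting options are not given in the sources used here. For 6 libraries the labels list 2 runs, while the table holds 1 column each. Symbols were matched for 14857 genes. The 174 genes, the 16 gene lists and the grouping by function were chosen with earlier results of these data known. Members on a list, the most abundant, those lowest with fetuin-A, those nearest a limit and those called were named by rule, and other names were chosen after their values were seen.

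CPM and R were computed in Python 3.11.15 with pandas 2.3.3. The test used edgeR 4.0.16 in R 4.3.3: filterByExpr, TMM, 1 coefficient per group over all 24 libraries, glmQLFit and glmQLFTest, with Benjamini-Hochberg adjustment over 14842 genes and a threshold of 0.05. Alternatives were the size factors and the Wald test of DESeq2 1.42.0, 3 surrogate variables from sva 3.50.0, no filter, only the groups compared, other constants and minima, and each library left out. On simulated counts for HSA + SB + LDN/d5 against HSA + LDN/d5, 33 of 50 genes lowered and 36 of 50 genes raised by 1 on the log2 scale were called among 14824 genes, and 7 unchanged genes. No sequence was used, and positions on Sscrofa11.1 served only to find neighbouring genes. A few of the genes are not reported here by name.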

Additional observations from a re-analysis of the deposited data

Results flagged for a closer look

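The highest or lowest of the 4 libraries was compared with the others in 222 sets of 4 values, made of single genes and of the medians of the functional groups, and 6 stood apart from the other 3 by Dixon's criterion, which chance alone meets in about 1 of 20 sets. In HSA/d1, library 4 of SHCBP1 was high at 9.05 CPM, where the other 3 had a median of 4.88 CPM. In HSA/d5, library 4 of PTPRN was high at 373.9 CPM, against a median of 221 CPM. In Fet-A/d5, library 3 of GPR119 was high at 2.70 CPM, against 0.57 CPM. In HSA + LDN/d5, library 1 of ACVR1C was high at 19.7 CPM, against 11.7 CPM, and the median level of the cell cycle genes was low in library 2 at -0.13 on the log2 scale relative to HSA/d5, against 0.14. In HSA + SB + LDN/d5, library 3 of DPP4 was low at 42.2 CPM, against 50.6 CPM.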

How the results depend on the processing

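The number of genes that met the criteria was 174, and 145 to 189 with TMM-scaled libraries, DESeq2 size factors, 0.1 or 1 CPM added, or another minimum. It was 153 to 244 with 1 library left out, the highest without library 3 of Fet-A/d5, and 84 of the 174 met them with each library left out in turn. With 1 library left out, 168 to 172 genes had all HSA + LDN/d5 libraries above HSA/d1 and 166 to 172 above Fet-A/d5. For HSA + SB + LDN/d5 the counts were 164 to 168 and 148 to 169. Leaving out a library can only keep or raise such a count, so these ranges do not measure stability. For HSA + SB + LDN/d5 against HSA + LDN/d5, the 1 member called higher became 0 without the filter, 2 with the Wald test of DESeq2, 3 with surrogate variables and 0 to 0 with 1 library left out, and the 0 called lower became 7 with surrogate variables and 0 to 0 with 1 library left out. Over all genes, 79 higher and 179 lower became 179 and 298 with DESeq2, 1004 and 997 with surrogate variables, and 31 to 64 and 89 to 151 with 1 library left out. The median log2 fold change of the members was -0.29 to -0.06 with 1 library left out, that of the cell cycle genes 0.07 to 0.21 and that of the granule genes -0.41 to -0.06. Leaving out library 3 of Fet-A/d5 lowered the members with a Fet-A/d5 mean above HSA/d1 from 88 to 44, an alternative added once the values were known. The cause of these shifts was not tested. No paired analysis was made, because no label ties a library to an islet preparation and the replicate numbers only follow the order of the labels. Marker sums of other cells did rank alike by number across groups, but a fit with this number as a block was not made. Surrogate variables were the only term for such shared spread.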
